A study of Mus musculus with 6 samples.

Results

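The cytosolic ribosomal protein genes are described here in hind limb muscle of mice with and without Baf155 in their muscle fibers. Members were chosen by symbol: Rpl or Rps followed by a digit, together with *Rplp0*, *Rplp1*, *Rplp2* and *Rpsa*, leaving out the *Rps6k* kinases, *Rps19bp1* and symbols containing -ps. The rule found 87 of the 20632 genes listed, 54 of the large and 33 of the small ribosomal subunit. Of these, 83 passed the filter on low counts (51 and 32). *Rpl10l* and *Rps27rt* had no counts in any mouse, *Rpl39l* had 1 to 3 counts a mouse and *Rpl37rt* had 2.73 to 14.96. Total RNA was sequenced from the combined muscles of the hind limb (SOL, Q, GA, EDL and TA) of unexercised male mice aged 3 months on a C57BL/6J background (C57BL/6 in the labels), with 1 library for each of 3 Baf155WT and 3 Baf155ΔMF mice. Both groups carried floxed *Baf155* alleles (*Baf155* f/f), and Baf155ΔMF mice also carried *MCK*-Cre, which is driven by the muscle creatine kinase promoter, is also active in cardiac muscle and leaves the alleles intact in the other cells of the tissue. Controls are labelled wild type and did not carry Cre.

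Ribosomal proteins assemble with ribosomal RNA in the nucleolus into a large subunit, which joins amino acids, and a small subunit, which decodes the mRNA. Their genes are transcribed at high levels in every cell, and their mRNAs commonly begin with a C followed by a run of pyrimidines, the 5′ terminal oligopyrimidine (TOP) tract, through which mTORC1 and Larp1 control their translation. Skeletal muscle also uses a fiber-specific protein, Rpl3l, in place of part of its Rpl3.

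The start sites of members that varied together between mice are shown to compare their first bases, with those of *Rpl3l*, which departed from them, and *Rpl7l1*, the member whose genotypes did not overlap. Each line holds 15 bases before and 15 bases from the RefSeq start (GRCm38.p6), read 5′ to 3′ on the transcribed strand, and capitals mark a pyrimidine run, defined as a C followed by 4 or more bases that are each C or T, lying within 5 bases of the start.
Rpl6 (chr5:121204486-121204515, plus strand): tggtcaCCTCCCgtcattgcttatagaccg
Rps3 (chr7:99483695-99483724, minus strand): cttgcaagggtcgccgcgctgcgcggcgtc
Rps18 (chr17:33955651-33955680, minus strand): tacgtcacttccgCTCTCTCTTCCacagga
Rps10 (chr17:27635230-27635259, minus strand): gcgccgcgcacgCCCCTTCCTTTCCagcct
Rpl10 (chrX:74270801-74270830, plus strand): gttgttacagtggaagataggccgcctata
Rps6 (chr4:86857353-86857382, minus strand): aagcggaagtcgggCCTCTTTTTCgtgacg
Rpl3l (chr17:24727811-24727840, plus strand): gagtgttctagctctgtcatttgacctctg
Rpl7l1 (chr17:46782642-46782671, minus strand): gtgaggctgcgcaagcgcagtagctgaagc
Runs of 6 to 13 bases stood at or near the starts of *Rpl6*, *Rps18*, *Rps10* and *Rps6*. The run of *Rpl6* lay wholly before the listed start, outside an mRNA that begins there, and the other runs crossed the start. No such run stood at or near the listed starts of *Rps3*, *Rpl10*, *Rpl3l* and *Rpl7l1*. RefSeq starts were listed for 67 of the 87 members. A run was found at or within 5 bases of 37 of their 79 starts (46.8%) and of 24.8% of all 32851 starts listed. Only the transcribed strand was searched, and a start that lies some bases from the one used in muscle would place the tract outside the window.

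Total counts were between 8426053 and 12469347 per mouse. *Smarcc1*, which encodes Baf155, was at 16.95 to 23.4 CPM (reads of a gene relative to its TMM-scaled library, TMM being a scaling that sets most genes level between mice) in Baf155WT and 6.54 to 7.72 CPM in Baf155ΔMF mice (log2 fold change -1.49, SE 0.15, edgeR adjusted p = 0.00907). The labels name the mice MS13-3, MS15-2 and MS15-3 (Baf155WT) and MS13-1, MS13-2 and MS14-2 (Baf155ΔMF) without saying what the MS13, MS14 and MS15 prefixes are, and the values of each gene below follow this order. All 8 skeletal muscle fiber markers listed (*Acta1*, *Ckm*, *Myh4*, *Myh1*, *Myh2*, *Myh7*, *Tnnt3* and *Ttn*) were detected in every mouse, with summed levels of 165886 to 208837 CPM.

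Ribosomal protein transcripts took 1.56%, 2.19% and 2.35% of all counts in the Baf155WT mice, and 1.52%, 1.76% and 1.76% in the Baf155ΔMF mice. Both MS15 mice lay above every other mouse, while the third Baf155WT mouse, MS13-3, lay within the Baf155ΔMF range. The 2 subunits kept the same proportion throughout: summed small-subunit CPM was 0.683 to 0.692 times the summed large-subunit CPM in the 6 mice. Per transcript length the 83 tested members ranged from 21.3 to 758 CPM per 1000 bases, as the mean of both genotypes. The highest were *Rps24* at 758, *Rps27* at 694 and *Rpl23a* at 664 CPM per 1000 bases, and the lowest *Rpl7l1* at 21.3, *Rpl32l* at 29.7 and *Rps15a* at 36.6. The low place of *Rps15a* depends on its length, since its annotated coding transcripts run from 640 to 5179 bases and the median of 5130 was used.

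No ribosomal protein gene passed an adjusted p of 0.05 between genotypes in edgeR's quasi-likelihood test over 12116 genes, in which 0.0248% of all genes did, and DESeq2 and limma-voom also called 0. The adjusted p-values of the members were between 0.601 and 0.969. At an unadjusted p under 0.05, 6 of 83 members (7.23%) were lower in Baf155ΔMF muscle, against 4.6% of all genes tested, and 0 were higher, against 3.35%. The fitted values nevertheless lay on 1 side: 82 of the 83 members were fitted lower in Baf155ΔMF mice, compared with 50.2% of all genes. Their median log2 fold change was -0.22 (0.86-fold), with quartiles of -0.26 and -0.16, and the median of all genes was -0.00095. Large-subunit members had a median of -0.22 and small-subunit members also of -0.22.

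The 5 members with the smallest p-values were *Rpl6*, *Rps3*, *Rps18*, *Rps10* and *Rpl10*, spread over both subunits. *Rpl6*, a large-subunit protein, was at 230.1, 319 and 324 CPM in Baf155WT mice and 223, 243 and 231 CPM in Baf155ΔMF mice. *Rps3*, which lies at the mRNA entry of the small subunit and also has a role in DNA repair, was at 251, 340.2 and 347 CPM and at 238, 271 and 253 CPM. *Rpl10*, which is added late to the large subunit and is required for subunit joining, was at 307, 442 and 457 CPM and at 299, 345 and 314 CPM. In each of these genes both MS15 mice were above all 3 Baf155ΔMF mice and the MS13-3 control was among them. *Rps18* was at 157, 219.7 and 215 CPM in Baf155WT and 151, 168 and 162 CPM in Baf155ΔMF mice. *Rps10* was at 90.3, 123 and 128 CPM and at 85.7, 96.5 and 94.8 CPM. Here too the MS15 mice were above all Baf155ΔMF mice, and MS13-3 was among the latter. The log2 fold changes were -0.32 for *Rpl6*, -0.30 for *Rps3*, -0.30 for *Rps18*, -0.30 for *Rps10* and -0.33 for *Rpl10*, with standard errors of 0.13 to 0.14, unadjusted p-values of 0.0283 to 0.0399 and adjusted p-values of 0.601 to 0.611.

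The groups did not overlap in 1 of 83 members, *Rpl7l1* (1.2%), where Baf155ΔMF was lower, against 5.57% of all genes. They did not overlap in the higher direction in 0 members, against 5.2% of all genes. *Rpl7l1*, which encodes an Rpl7-like protein, was at 41.1, 45.0 and 46.2 CPM in Baf155WT mice and 39.6, 38.4 and 39.8 CPM in Baf155ΔMF mice (log2 fold change -0.17, SE 0.09, edgeR adjusted p = 0.633). A two-sided exact permutation test gave p = 0.1, the smallest that 3 mice against 3 allow.

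**Figure D1:**
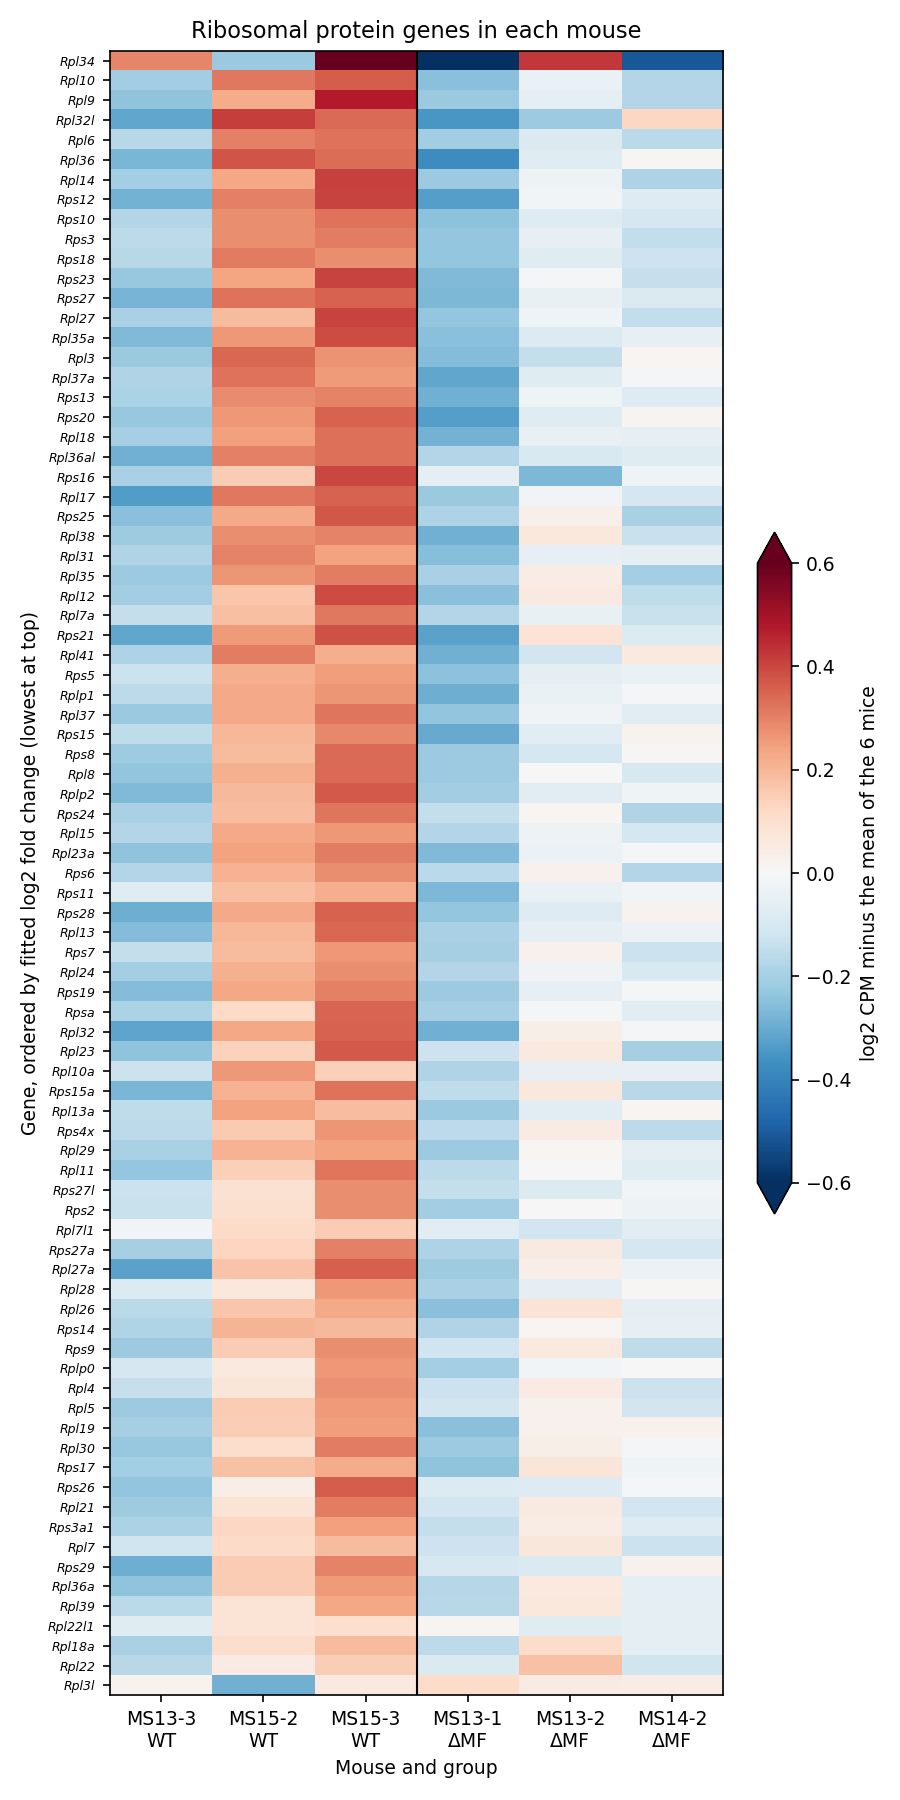
Each row is 1 of the 83 tested ribosomal protein genes, ordered from the lowest to the highest fitted log2 fold change, and each column is 1 mouse. Color gives log2 CPM minus the gene's mean over the 6 mice, with 2 values beyond the color limit of 0.6. The 2 MS15 control columns are red for almost every gene, the MS13-3 control and MS13-1 columns are blue, and *Rpl3l* at the bottom and *Rpl34* at the top have other patterns.

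The members varied together from mouse to mouse. Mean log2 CPM over the 83 genes was 7.36, 7.74 and 7.85 in Baf155WT mice and 7.34, 7.54 and 7.47 in Baf155ΔMF mice, or 7.65 ± 0.259 (SD, n = 3) and 7.45 ± 0.101 (SD, n = 3). The difference of -0.20 was smaller than the SD within Baf155WT, and the lowest control lay between the lowest and the middle Baf155ΔMF mouse. The first principal component took 87.5% of the variance of the members' log2 CPM about their own means, and 43.3% of that of all genes tested. Much of the variation over all genes thus also followed 1 pattern of mice shared by many genes. With so few mice a first component takes a sizeable share even of unrelated genes. The per-mouse mean of the members alone took 81.5% of their variance, and that of all genes took 0.48% of theirs. The scaling sets most genes level between mice, so the share of all genes was bound to be small. Members share their libraries and scaling, so they are not replicates and these shares have no test. In MS15-3 all 83 members were above their own 6-mouse mean and in MS15-2 81 were. The number was 2 in MS13-3, 2 in MS13-1, 33 in MS13-2 and 14 in MS14-2. Of all genes tested, 49.9% to 51.9% were above their own mean in each mouse, a share that the scaling also keeps nearly level. MS15-3 was the highest mouse for 71 members (85.5%) and for 19.3% of all genes.

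**Figure D2:**
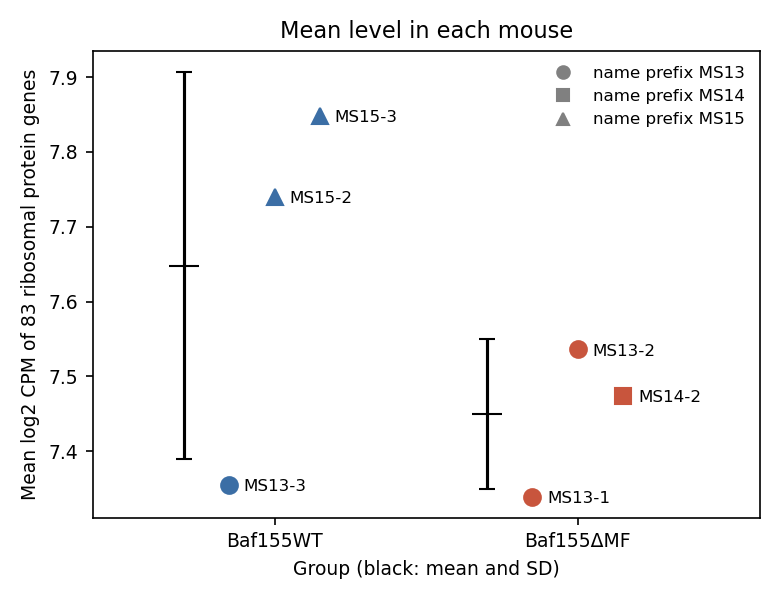
The vertical axis is the mean log2 CPM of the 83 tested ribosomal protein genes, and each point is 1 mouse, with its shape giving the prefix of its name. Black marks give the group mean and SD (n = 3). The MS15 controls stand at 7.74 and 7.85, above the other 4 mice, which lie between 7.34 and 7.54.

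Both MS15 mice were Baf155WT, and they had the highest levels of ribosomal protein transcripts. Both were above the other 4 mice in 79 of 83 members (95.2%) and in 17.5% of all genes. Within the controls, the MS15 mice exceeded MS13-3 in 81 of 83 members and in 51.2% of all genes. The median log2 difference of the members was 0.45 (1.37-fold), with a range from -0.14 to 0.68, where the median of all genes was 0.0084. This sets 2 control mice against 1 and is a description of those mice, with no test.

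MS13 was the only prefix with both genotypes. Among its 3 mice the median log2 difference between the 2 Baf155ΔMF mice and the control was 0.09, with 73 of 83 members higher and 10 lower in Baf155ΔMF, where the median of all genes was -0.00065 and 49.8% of them were higher. With the prefix as a covariate, the genotype effect came from these 3 mice alone: 0 members passed an adjusted p of 0.05 (0.132% of all genes did), their median log2 fold change was 0.10 and 10 were fitted lower. The genotype could not be compared within MS14 or MS15, each of which held 1 genotype. Leaving out the MS13-3 control instead gave 46 members past an adjusted p of 0.05 and a median of -0.35, among 955 genes past it overall. Prefix and genotype therefore cannot be told apart for the MS15 and MS14 mice.

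**Figure D3:**
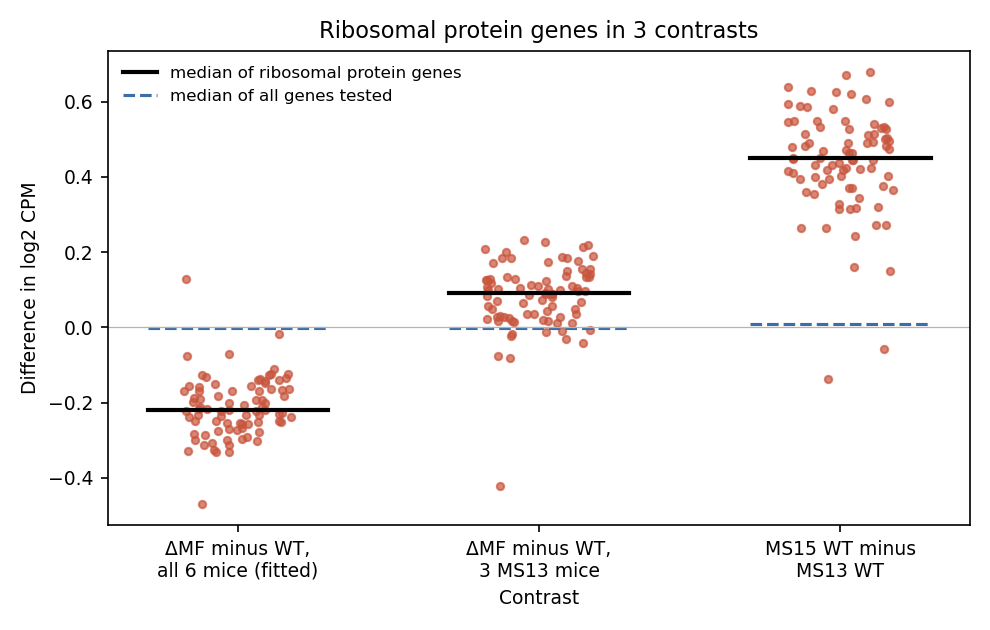
The vertical axis is a difference in log2 CPM, each point is 1 of the 83 tested ribosomal protein genes, and black and dashed lines are the medians of these genes and of all genes tested. The genes center on -0.22 between genotypes over all 6 mice, on 0.09 between genotypes in the 3 MS13 mice and on 0.45 between the MS15 and MS13 controls, 3 contrasts that share mice.

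Members were short. Their median annotated coding transcript was 771 bases long, compared with 2795 for all genes tested, and 81 of the 83 were shorter than the median gene. Other short genes showed a smaller difference of the same sign. The 832 tested genes under 1000 bases that were not members had a median log2 fold change of -0.11 between genotypes and of 0.21 between the MS15 and MS13 controls. After a trend with length over all genes was removed, the median of the members was -0.09 and that of all genes was -0.0023. Of the members 73 were below 0, a count for which the share of all genes is not given. Only 1 member was lower at an unadjusted p under 0.05, where 4.72% of all genes were. Removing a trend with GC content left the median at -0.20.

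**Figure D4:**
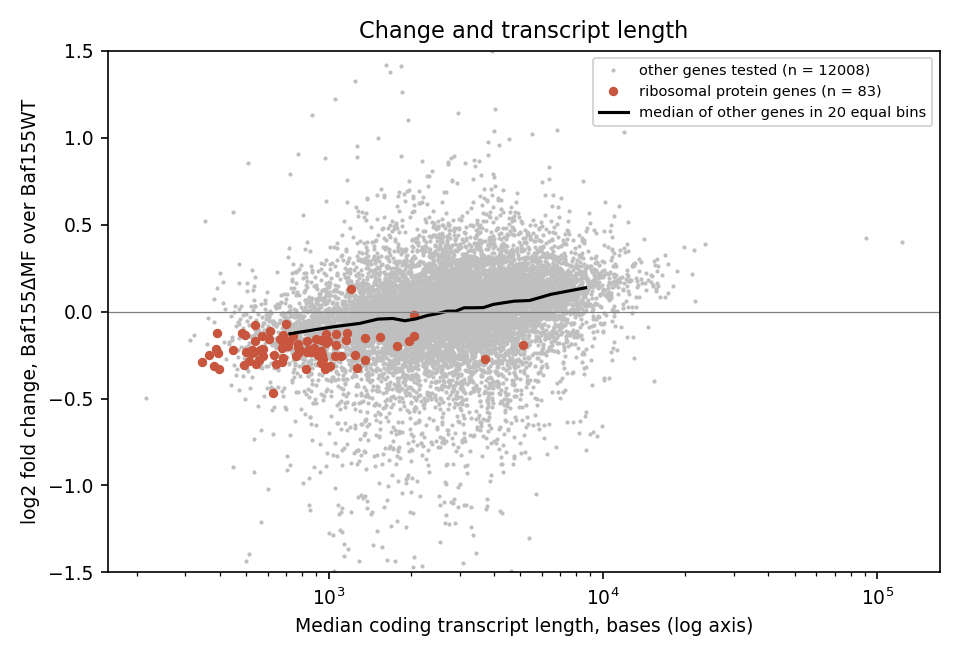
The horizontal axis is the median coding transcript length on a log scale and the vertical axis the log2 fold change of Baf155ΔMF over Baf155WT. Red points are the 83 tested ribosomal protein genes, grey points 12008 other genes and the black line the median of the other genes in 20 bins of equal size, which goes from -0.13 in the shortest to 0.14 in the longest bin. Red points lie mostly at short lengths and below the line, and 18 genes fall outside the plotted range.

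Markers of some other cell types varied along with the ribosomal protein genes, and those of others did not. Summed levels of 8 leukocyte markers were 138, 378 and 295 CPM in Baf155WT and 127, 134 and 195 CPM in Baf155ΔMF mice, so both MS15 mice were again above the other 4. All 6 of the tested markers, *Ptprc*, *Cd68*, *Adgre1*, *Csf1r*, *Lyz2* and *Cd74*, were lower in Baf155ΔMF at an unadjusted p under 0.05, with a median log2 fold change of -0.88 and adjusted p-values of 0.601. *Ptprc*, the pan-leukocyte antigen CD45, was at 7.09, 19.2 and 17.1 CPM and at 8.44, 7.79 and 7.60 CPM. The 3 adipocyte markers summed to 18.7, 34.5 and 30.1 CPM and to 21.4, 13.8 and 18.7 CPM, and 1 of them, *Adipoq*, was lower at an unadjusted p of 0.0038 (log2 fold change -0.86, adjusted p = 0.601). Erythroid markers, the globins and *Alas2*, did not have this pattern (777, 1227 and 622 CPM, and 371, 504 and 805 CPM), although 3 of 5 were lower at an unadjusted p under 0.05, with a median of -0.70. The 4 endothelial markers summed to lower levels in the MS15 mice than elsewhere (249, 192 and 200.2 CPM, and 255, 273 and 251 CPM). Of these, *Tek* was nearly level, at 41.4, 41.2 and 40.1 CPM and at 41.1, 41.7 and 43.3 CPM. *Kdr* and *Pecam1* were higher in Baf155ΔMF at an unadjusted p under 0.05 (edgeR adjusted p = 0.601 each). The 4 fibroblast markers went both ways, with a median of 0.02. Of these, *Dcn*, at 744, 1161 and 1011 CPM and 654, 678 and 836 CPM, was lower at an unadjusted p of 0.0213 (log2 fold change -0.43, adjusted p = 0.601), and *Pdgfra* was at 83.4, 131 and 116 CPM and 89.7, 87.4 and 98.6 CPM. In both the MS15 mice were above the other 4. *Col1a1* and *Col3a1* were instead fitted higher in Baf155ΔMF, at log2 fold changes of 0.36 and 0.31 (edgeR adjusted p = 0.666 and 0.66). The 8 fiber markers summed to 206035, 175954 and 165886 CPM and to 208837, 197464 and 180952 CPM, with the MS15 mice at the 2 lowest values. Single fiber markers were split. *Ttn*, the very long gene of the sarcomeric spring titin, differed by -0.94 on the log2 scale between the MS15 and MS13 controls. It was at 81290, 47541 and 37561 CPM and at 85258, 75257 and 62959 CPM. This gene was a large part of the sums above and ranked the mice in the same order. The low sums of the MS15 mice therefore do not hold for the fiber markers as a set. *Acta1*, *Ckm* and *Tnnt3* differed by 0.20, 0.24 and 0.32, and in each of them both MS15 mice were above the other 4. *Myh1* and *Myh2* were higher in Baf155ΔMF at an unadjusted p under 0.05 in edgeR (log2 fold change 0.49 and 0.38, adjusted p = 0.601 each). None of the markers listed was at 0 in all mice. Their part in the level of ribosomal protein transcripts was not tested. In whole muscle, fewer cells of a type and less RNA per cell cannot be told apart.

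The stalk proteins recruit elongation factors to the large subunit. *Rplp0*, the stalk base, was the most abundant member in CPM, at 633, 709 and 815 in Baf155WT mice and 591, 672 and 682 in Baf155ΔMF mice. *Rplp1* was at 216, 281 and 289 CPM and at 196, 234 and 239 CPM. *Rplp2* was at 123, 169 and 190.3 CPM and at 127, 141 and 145 CPM. Both MS15 mice were above the other 4 in all of these, and MS13-3 was below at least 2 of the Baf155ΔMF mice. *Rpsa*, the small-subunit protein also known as the laminin receptor, was at 398, 491 and 577 CPM and at 394, 451 and 432 CPM. Their log2 fold changes were -0.15, -0.23, -0.22 and -0.20, in this order, with adjusted p-values of 0.633 to 0.709.

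In members known for roles beyond the ribosome the MS15 mice were again above the other 4. *Rps6*, the substrate of the mTORC1-dependent kinases, was at 256, 336 and 352 CPM in Baf155WT and 259, 296 and 257 CPM in Baf155ΔMF mice (log2 fold change -0.22, SE 0.13, adjusted p = 0.643). *Rps19*, which is mutated in Diamond-Blackfan anemia, was at 104, 146 and 154 CPM and at 107, 120.4 and 124 CPM. *Rpl5* and *Rpl11*, which bind Mdm2 when assembly stalls, were at 339, 439 and 472 CPM and 366, 402 and 365 CPM for *Rpl5*, and at 124, 161 and 181 CPM and 130.2, 146 and 138 CPM for *Rpl11*. In all 4 of these genes MS13-3 was the lowest of the 6 mice. *Rps27a*, made as a fusion with ubiquitin, was at 136, 170.2 and 192 CPM and at 137, 162 and 145 CPM. *Rpl13a*, a common reference gene for RT-qPCR, was at 293, 384 and 370.0 CPM and at 279, 312 and 328 CPM, a log2 fold change of -0.19 that did not pass the test (adjusted p = 0.668). The log2 fold changes of all 6 were between -0.22 and -0.14.

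Some paralogs departed from the rest. *Rpl3l* was the only member fitted higher in Baf155ΔMF muscle, at 186, 149.9 and 190.4 CPM in Baf155WT and 197, 189 and 189 CPM in Baf155ΔMF mice (log2 fold change 0.13, SE 0.11, adjusted p = 0.720). MS15-2 was low and the other 5 mice were close together. *Rpl3* was at 64.7, 95.7 and 91.0 CPM and at 63.1, 68.4 and 76.0 CPM (log2 fold change -0.28, SE 0.14, adjusted p = 0.622), and so followed the common pattern. Per transcript length, *Rpl3l* was at 3.22, 1.76 and 2.35 times *Rpl3* in Baf155WT and 3.51, 3.10 and 2.78 times in Baf155ΔMF mice, or 2.44 ± 0.736 and 3.13 ± 0.363 (SD, n = 3 each, two-sided exact permutation p = 0.3). Within the MS13 mice the log2 ratio differed by 0.04. *Rpl3l* was thus the more abundant of the pair per length in all 6 mice, and its ratio to *Rpl3* did not differ beyond the spread between mice.

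*Rpl22* was at 108, 126 and 134 CPM in Baf155WT and 114, 137 and 112 CPM in Baf155ΔMF mice, the smallest fitted change of any member (log2 fold change -0.02, SE 0.11, adjusted p = 0.969). Its paralog *Rpl22l1* was at 46.3, 51.5 and 52.2 CPM and at 49.2, 46.3 and 46.9 CPM (log2 fold change -0.08, SE 0.09, adjusted p = 0.817). Per length the paralog stood at 1.28 to 1.64 times *Rpl22*, with both extremes in Baf155ΔMF mice. This ratio depends on the length taken for *Rpl22*, whose annotated coding transcripts run from 474 to 2051 bases (median 2048), and in CPM *Rpl22* was the higher of the pair in all 6 mice. *Rps27l* was at 0.182 to 0.237 times *Rps27* and *Rpl36al* at 0.628 to 0.773 times *Rpl36a*, again per length. *Rpl7l1* was far below *Rpl7*, at 0.0630 to 0.0767 times its level per length. The exact permutation p-values of these 4 ratios were between 0.3 and 0.9. *Rpl39* was at 101, 119 and 132 CPM and at 100.3, 117 and 108 CPM, while *Rpl39l* stayed at or under the floor of 3 counts and *Rpl10l* had no counts, so neither was compared with its partner. *Rps4x* was at 269.9, 335 and 363 CPM and at 270.4, 312 and 271 CPM.

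Reads shared with near-identical copies affected some members. Estimates with fractions, which arise when reads are divided between genes, occurred in at least 1 mouse in 14 of the 87 members and in every mouse in 8. *Rpl34* had the lowest fitted log2 fold change of any member, -0.47 (SE 0.28, adjusted p = 0.653), and this gene, *Rpl31*, *Rpl32* and *Rpl37* were singled out after their values were seen. Its estimated counts were 1072, 950.2 and 1542 in Baf155WT and 495.56, 1097.29 and 510.96 in Baf155ΔMF mice, an order of mice unlike that of the other members named here. Its copy *Rpl34-ps1* was at 0, 929.8 and 0 and at 483.44, 5.71 and 458.04 counts, so that *Rpl34* held between 50.5% and 100% of the pair's counts. The sums were 1072, 1880 and 1542 and 979, 1103 and 969 counts, and the log2 fold change of the sum was -0.22 (SE 0.12, adjusted p = 0.635), close to the median member. Summing *Rpl31*, *Rpl32* and *Rpl37* with their copies left their log2 fold changes at -0.25, -0.20 and -0.23.

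**Figure D5:**
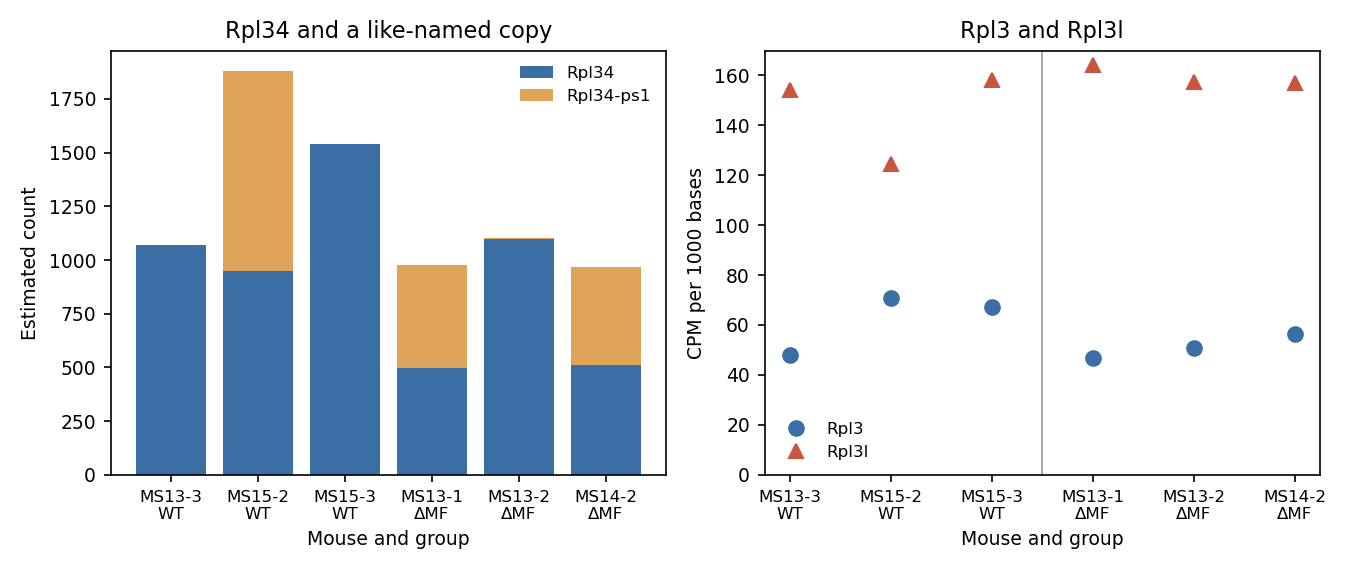
Left, estimated counts of *Rpl34* and of the copy *Rpl34-ps1*, stacked, in each mouse: the split of the pair varies from mouse to mouse, and the copy holds 929.8 counts in MS15-2 and 0 in MS13-3 and MS15-3. Right, CPM per 1000 bases of *Rpl3* and *Rpl3l* in each mouse: *Rpl3l* is above *Rpl3* in all 6 mice.

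Genes that work with the ribosome were listed by role. *Fau*, whose product releases the small-subunit protein Rps30, was at 97.3, 139.7 and 139 CPM in Baf155WT and 95.2, 100.1 and 104 CPM in Baf155ΔMF mice (log2 fold change -0.33, SE 0.13, unadjusted p = 0.0297, edgeR adjusted p = 0.601). *Rack1*, a scaffold protein bound to the small subunit, was at 329, 432 and 448 CPM and at 319, 360.4 and 327 CPM (log2 fold change -0.26, SE 0.12, edgeR adjusted p = 0.622). In both genes the MS15 mice were above the other 4. Of 18 translation factors with TOP mRNAs, 0 passed an unadjusted p of 0.05 in either direction and the median log2 fold change was -0.01. Between the MS15 and MS13 controls the median of this list was 0.11. Of the 18 factors 12 were higher in the MS15 controls, against 51.2% of all genes. The genotype value of *Eef1a1*, the elongation factor that delivers tRNA, was -0.24, and both MS15 mice were above the other 4. *Naca*, of the nascent chain complex, had a value of 0.31, and both MS15 mice were below the other 4 (edgeR adjusted p = 0.622 and 0.676).

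Among 25 ribosome assembly factors 0 were lower and 1 was higher at an unadjusted p under 0.05. This was *Gar1*, a protein of the H/ACA particles that pseudouridylate RNA, at 0.874, 1.07 and 0.892 CPM in Baf155WT and 1.92, 1.66 and 1.99 CPM in Baf155ΔMF mice (log2 fold change 0.95, SE 0.29, edgeR adjusted p = 0.601). Its groups did not overlap, its counts were low, and within the MS13 mice the value was 0.89. The median of the assembly list was -0.04. None of the 13 genes of RNA polymerase I, which transcribes ribosomal RNA, and none of the 16 genes of mTORC1 and TOP control passed an unadjusted p of 0.05 in edgeR (0 in each direction), and their medians were 0.01 and 0.07. *Larp1*, the TOP-binding repressor, had a log2 fold change of 0.24 and *Mtor* one of 0.17 (adjusted p = 0.633 and 0.687).

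Other complexes whose genes are mostly short had smaller values than the cytosolic ribosome. Median lengths were 1223 bases for mitochondrial ribosomal protein, 1398.5 for proteasome and 782 for complex I genes, against 771 for the members. Only complex I was thus close to the members in length. The 77 mitochondrial ribosomal protein genes had a median log2 fold change of -0.08 between genotypes and of 0.19 between the MS15 and MS13 controls, and 1 of them, *Mrpl52*, was lower at an unadjusted p under 0.05. The medians were -0.05 and 0.11 for 38 tested proteasome genes, of which 0 passed an unadjusted p of 0.05, and -0.07 and 0.10 for 37 complex I genes, of which *Ndufb6* was lower. For the cytosolic members the same medians were -0.22 and 0.45. The difference between these lists was not tested.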

How the data were processed

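The authors deposited 1 table of expected counts, that is estimated counts of reads per gene without normalization, for 20632 genes in 6 mice, made from stranded total RNA libraries. The submitters' processing notes name RSEM 1.2.30, TopHat2 2.1.1, Bowtie2 2.2.7, cutadapt 1.10 and the build mm10 (GRCm38). The annotation was not given in the sources used here. Estimates were rounded and fitted in R 4.3.3 with edgeR 4.0.16 (filterByExpr with a minimum count of 10 and a total of 15, TMM factors of 0.958 to 1.05, quasi-likelihood F test, Benjamini-Hochberg adjustment over the 12116 genes tested). DESeq2 1.42.0 and limma 3.58.1 were alternatives. CPM used TMM-scaled library sizes, log2 CPM a prior count of 2, and the floor of 3 counts was 0.230 to 0.351 CPM. Per-length levels used the median GENCODE M21 coding transcript. The fit was tested on simulated data.

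Members, gene lists and tests were chosen with earlier results of these data known. Genes named are paralog pairs, stalk and textbook members, the 5 lower members with the smallest p-values and the only member fitted higher. Also named are the 3 highest and lowest per length and at most 4 genes a list, except for the leukocyte and fiber markers, of which more are named. The lists of satellite cell, Schwann cell, smooth muscle and histone genes had medians of -0.06, 0.15, -0.02 and -0.07 on the log2 scale. Symbols of mitochondrially encoded and small nucleolar RNA genes were not analysed here, and 1 listed gene is not reported here. The p-values measure the spread between mice, since the labels name a separate mouse for each library.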

Additional observations from a re-analysis of the deposited data

How the results depend on the processing

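No ribosomal protein gene passed an adjusted p of 0.05 in any alternative that kept all 6 mice. No paired analysis was possible because the labels match no mice between genotypes, and the MS14 and MS15 prefixes each held 1 genotype. The labels give mouse names and no replicate numbers, so numbers were given in sample order. The cause was not tested where values changed. The number of all genes past the threshold, 3, became 23 with DESeq2, 5 with limma-voom, 17 with no filter and 16 with the prefix as covariate, and 0 to 955 when 1 mouse was left out. The 0 ribosomal protein genes past it became 0 to 46, the 46 without the MS13-3 control. The 6 members lower at an unadjusted p under 0.05 became 10 with DESeq2, 2 with limma-voom, 15 with no filter, 11 with library size only, 1 with the length trend removed, 0 with the prefix as covariate, 0 at an unadjusted p under 0.01 and 0 to 78 when 1 mouse was left out (78 without MS13-3, 0 without MS15-3, MS13-1 or MS14-2, and 1 without MS15-2). The share of all genes lower at an unadjusted p under 0.05 was 4.6% in the main fit and 4.72% with the length trend removed. It is not given for the other settings, so those counts do not set the members apart from other genes. The median log2 fold change of -0.22 became 0.0924 in the MS13 mice alone and 0.0957 with the prefix as covariate. It stayed between -0.35 and -0.11 when 1 mouse was left out, the latter without MS15-3. The difference in per-mouse mean, for which leaving out mice was added after seeing the data, stayed between -0.34 and -0.10.

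With the prefix as covariate, 27 named members changed sign, none past an adjusted p of 0.05. Their log2 fold changes were 0.0235 (*Rpl3*), 0.219 (*Rpl22*), 0.0433 (*Rpl22l1*), 0.0957 (*Rpl7*), 0.113 (*Rpl39*), 0.0687 (*Rpl10*), 0.129 (*Rps27*), 0.0174 (*Rps27l*), 0.191 (*Rpl36a*), 0.152 (*Rpl36al*), 0.108 (*Rps4x*), 0.129 (*Rplp2*), 0.0880 (*Rpsa*), 0.114 (*Rps6*), 0.132 (*Rps19*), 0.178 (*Rpl5*), 0.159 (*Rpl11*), 0.139 (*Rps27a*), 0.0141 (*Rpl13a*), 0.0199 (*Rpl6*), 0.0192 (*Rps3*), 0.0186 (*Rps18*), 0.0135 (*Rps10*), 0.129 (*Rps24*), 0.0934 (*Rpl23a*), 0.233 (*Rps15a*) and 0.0303 (*Rpl32l*). With the length trend removed the values were 0.0158 for *Rpl22*, 0.0737 for *Rpl22l1*, 0.0280 for *Rpl39* and 0.0413 for *Rpl36a*. *Rpl22* lay between -0.117 and 0.0510 when 1 mouse was left out.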
